A study of Mus musculus with 4 samples.

Results

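Distal open chromatin regions of 1 control library were described, namely merged ATAC-seq regions that held a peak in the first control library (control 1) and in none of the other 3 libraries. ATAC-seq uses the Tn5 transposase to cut and tag DNA that is not wrapped in nucleosomes, and a peak marks a stretch where such cuts pile up. Peaks of all libraries on chromosomes 1-19 and X were merged when they overlapped by 1 bp or more, and a region was kept when its centre lay more than 3 kb from every annotated transcription start site (TSS). This gave 2985 regions of 35988 merged regions (8.29%), or of 19164 merged regions that were distal in this sense. The cells were RAW264.7, a mouse macrophage line grown from a virus-induced tumour, of wild-type genotype. All cells had been given 25 ug/mL DIL-oxLDL, oxidized low-density lipoprotein with a fluorescent dye, over 24 h. The 2 control libraries came from cells given the vehicle DMSO (0 ug/mL esculetin), and the 2 esculetin libraries from cells given 40 ug/mL of this plant coumarin. Nothing in the labels says that the 2 libraries of a group came from separate cultures. Because 1 library chose the regions, whatever separates them from other regions cannot be told apart from whatever separates that library from the others.

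Distal open regions are often enhancers, stretches of DNA where transcription factors bind and act on a promoter that may be far away. Enhancers are more restricted to a cell type than promoters are, so the genes nearest to a set of distal regions are commonly read as a hint of the cell types in which those regions are used. The nearest gene is a convention, since an enhancer can skip it. Below, the peaks of a gene are those with its TSS as the nearest coding one. A gene said to have no peak may therefore hold one in its body that is nearer to another gene. Macrophages are known for open enhancers at genes for lineage factors, phagocytic receptors and lipid handling.

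The labelled cell type was checked on 20 macrophage genes, of which 6 had a promoter peak (within 1 kb of a TSS) in control 1, 8 in control 2, 1 in esculetin 1 and 5 in esculetin 2. Over all 21627 protein-coding genes the shares with a promoter peak were 36.1%, 37.6%, 26.1% and 33.3%. The macrophage shares were 30%, 40%, 5% and 25%, above that of all coding genes in control 2 only. Promoter peaks thus did not set the macrophage genes apart. The lists held between 8677 and 27833 peaks, with 19595 in control 1. Depth was not listed, but the peak caller's genome-wide background coverage could be solved from the listed values and was 6.51 in control 1, 4.08 in control 2, 4.97 in esculetin 1 and 4.10 in esculetin 2. Control 1 was thus the library with the highest background coverage.

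A genome sequence of the build used by the files (mm10) was not used here, so no sequence of a distal region is shown. Promoter windows from RefSeq (GRCm38.p6, 250 bases before to 50 after the start) were available for 18 of the 20 kidney tubule genes that were nearest to a distal control 1 region. Of these genes, 2 had a peak of control 1 alone lying over the window itself, and both windows are given because the distal regions of the same genes are described below. In each, capitals mark the bases under the peak. Both are on the plus strand, chr2:126552774-126553073 for Slc27a2 and chr11:54902604-54902903 for Gpx3.
Slc27a2: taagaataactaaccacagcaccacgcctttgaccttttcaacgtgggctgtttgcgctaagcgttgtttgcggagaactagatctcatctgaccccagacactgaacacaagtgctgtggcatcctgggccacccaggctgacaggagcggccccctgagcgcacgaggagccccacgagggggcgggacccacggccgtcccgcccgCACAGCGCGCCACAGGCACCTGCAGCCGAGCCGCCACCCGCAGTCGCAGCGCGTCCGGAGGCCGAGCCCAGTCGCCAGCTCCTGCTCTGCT
Gpx3: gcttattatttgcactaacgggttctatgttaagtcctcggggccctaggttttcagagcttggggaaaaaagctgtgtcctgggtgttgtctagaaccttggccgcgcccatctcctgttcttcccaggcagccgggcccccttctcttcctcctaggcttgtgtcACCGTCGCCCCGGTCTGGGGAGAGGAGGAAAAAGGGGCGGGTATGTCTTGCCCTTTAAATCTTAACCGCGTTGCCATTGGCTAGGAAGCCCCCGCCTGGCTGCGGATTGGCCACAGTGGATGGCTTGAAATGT

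The Slc27a2 window was 65.3% G or C with 25 CpG dinucleotides, and its peak (chr2:126552983-126553677) covered the last 91 bases. The Gpx3 window was 56.3% G or C with 13 CpG, and its peak (chr11:54902771-54903019) covered the last 133 bases. Across 32619 promoter windows of the same length the median was 53.0% G or C and 7 CpG, with 25th and 75th percentiles of 46.0% and 61.7% and of 3 and 20 CpG. The Slc27a2 window therefore lay above the 75th percentile on both measures and the Gpx3 window between the 25th and the 75th.

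Most of the distal regions of control 1 alone were weak peaks of that library. Strength was ranked by the percentile of the listed −log10 p within the control 1 list, where 100 is the strongest peak. These values helped to choose the regions and are a description. The median percentile was 21.3, the 25th and 75th percentiles of this measure were 8.28 and 36.7, and the strongest region stood at 99.4. The median fold enrichment over the local background was 3.33 and the median width 246 bp. Distal control 1 regions shared with 1 other library (3382 regions) had a median percentile of 43.9, those shared with 2 (941 regions) 55.2, and those shared with all 3 (788 regions) 77.9. The more libraries held a region, the stronger it was in control 1.

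**Figure D1:**
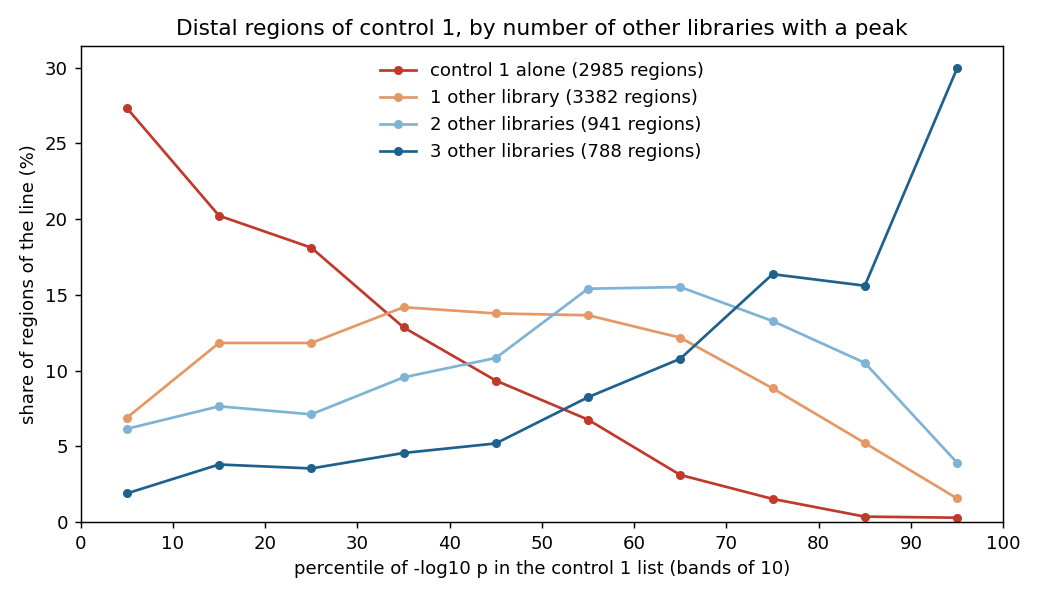
Distal regions of control 1 by strength. The x axis gives the percentile of −log10 p within the control 1 list in bands of 10, the y axis the share of regions in percent, and each line a number of other libraries with a peak. The 2985 regions of control 1 alone fall from 27.3% in the lowest band to 0.30% in the highest, whereas the 788 regions of all 4 libraries rise from 1.90% to 29.9%.

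A strong tail was nevertheless present, with 361 regions (12.1%) at or above the 50th percentile and 20 of them at or above the 80th. A further 920 lay between the 25th and 50th percentile, 888 between the 10th and 25th, and 816 under the 10th. The coverage at each summit was scaled down to the background coverage of the other libraries, assuming the same fragment length in all of them. At the scaled coverage 2683 regions (89.9%) would still have reached the lowest −log10 p listed for control 2, 2821 (94.5%) that of esculetin 1, and 2592 (86.8%) that of esculetin 2. All regions at or above the 10th percentile would have reached all 3, against 421 of the 816 (51.6%) below it. The scaling takes the signal at each summit as the same in every library. It starts from summits that had to be called in control 1 and adds no counting error, so these shares are likely too high. The part of depth in the calls was not tested.

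The nearest peak of another library was a median of 12.2 kb away, and 395 regions (13.2%, exact 95% interval 12 to 14.5) had one within 1 kb. Control 2 held most of these neighbours, with 351 regions within 1 kb of one of its peaks, against 60 for esculetin 1 and 102 for esculetin 2. It also had the most peaks on these chromosomes, 27698 against 8559 and 12660, and the counts were not adjusted for this. Just inside the 3 kb limit lay regions near Itpr2 (3001 bp), Mcu (3003 bp) and Parp14 (3009 bp), at the 25.2, 12.1 and 54.6 percentile. Just short of it lay regions near Chsy1 (2993 bp), Kcnn1 (2990 bp) and Pmp22 (2988 bp), at the 4.84, 35.4 and 18.1 percentile. The strengths on either side of the limit overlapped.

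Regions of differing strength lay at proximal tubule genes. Pck1, the gene of cytosolic phosphoenolpyruvate carboxykinase and a control point of gluconeogenesis, held 2 regions. They lay 3.95 and 5.58 kb into the gene at the 55.9 and 97.0 percentile, and the stronger, chr2:173158214-173159084, was 871 bp wide. A peak 375 bp from the Pck1 TSS (79.4 percentile) was likewise found in control 1 alone. The other 3 libraries listed no peak for this gene, proximal or distal.

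Gpx3, which encodes the secreted glutathione peroxidase made mainly by kidney tubules, held a region at the 91.4 percentile 4.39 kb from the TSS. A second distal region 7.04 kb from the TSS was shared by both controls, at the 99.88 percentile in control 1 and the 48.6 in control 2. With the promoter peak shown above (60.6 percentile), Gpx3 had 3 peaks in control 1. Control 2 listed 2 for it and the esculetin libraries none.

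Slc27a2, a very long-chain acyl-CoA synthetase and fatty acid transporter, held regions at the 58.9 and 68.8 percentile 8.60 and 11.7 kb into the gene. Its promoter peak stood at the 93.4 percentile. Aqp1, the water channel of the proximal tubule and of red cells, held regions at the 39.8 percentile 11.1 kb downstream and at the 14.4 percentile 4.88 kb upstream, with a promoter peak at the 60.1. Neither gene had a peak in the other libraries. Slc34a1, the sodium-phosphate cotransporter of the proximal tubule, held a region at the 40.2 percentile 3.33 kb from the TSS and a nearer peak at the 60th percentile, both of control 1 alone. A region further into the gene was listed in control 1 (30.4), control 2 (17.4) and esculetin 2 (57.7), so this gene was not empty elsewhere.

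**Figure D2:**
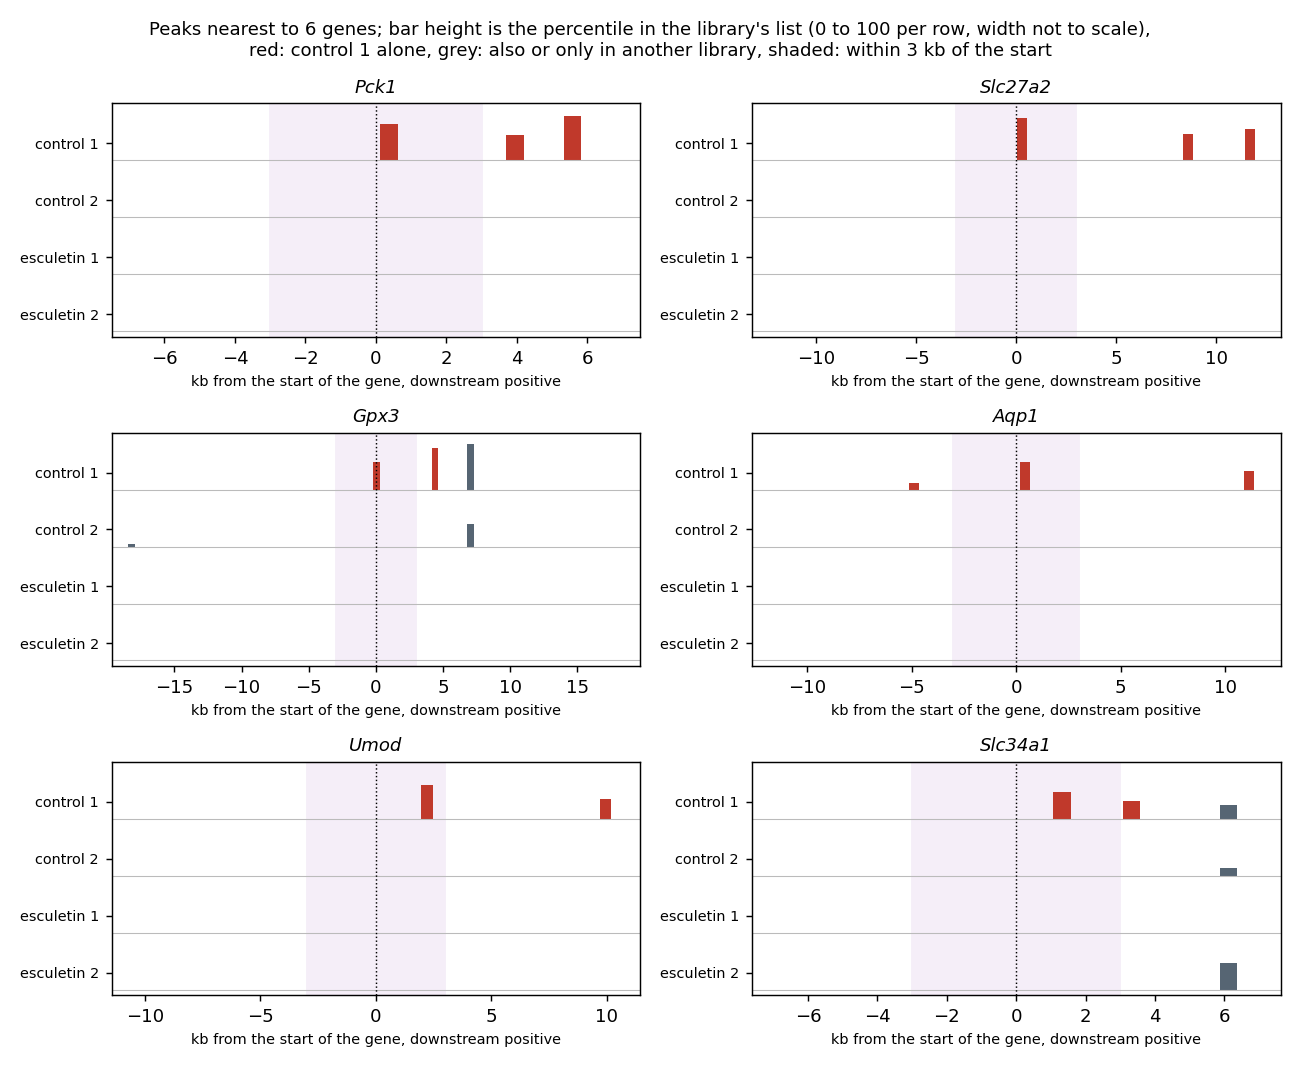
Peaks by distance from the TSS at 6 genes. The x axis gives kb from the start of the gene with downstream positive, each row is a library, and bar height is the peak's percentile in that library's list. Red bars are regions of control 1 alone, grey bars are regions found in another library, and the shaded band marks 3 kb on either side of the TSS. At Pck1, Slc27a2, Aqp1 and Umod the rows of the other 3 libraries are empty, while Gpx3 and Slc34a1 each have a shared region.

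Strong regions also lay near genes of other kinds. A region at the 98.5 percentile was 21.1 kb into Tyr, the tyrosinase gene of melanin synthesis, at chr7:87472308-87472611, with no other peak listed for that gene in any library. A region at the 97.6 percentile had the calcium-binding protein gene Cabp7 as its nearest coding TSS, 42.6 kb away, but lay inside Nf2. Nf2, which encodes the tumour suppressor merlin, was itself nearest to 4 regions, at the 91.9, 51.0, 41.7 and 31.6 percentile. Its promoter was open in all 4 libraries, at the 83.5, 66.9, 72.5 and 96.2 percentile, so that at this gene the promoter was listed in every library and the distal regions in 1.

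A region at the 94.6 percentile was nearest to Ccn4 and lay in the body of Ndrg1, a stress-responsive gene, and at 1611 bp it was the widest of all 2985. Regions at the 89.0 and 74.6 percentile were nearest to Nasp, a histone chaperone gene, and lay in the body of Akr1a1, an aldehyde reductase gene. Akr1a1 was also the nearest gene of another region at the 55.7 percentile. Among the 15 strongest were also regions nearest to Epm2a (87.4), the laforin gene of glycogen metabolism, Cd69 (84.8), an early activation marker of leukocytes, Ubash3b (84.5), a phosphatase gene, S1pr1 (83.0), a sphingosine-1-phosphate receptor, and Stard9 (82.7), a kinesin gene.

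The question of which tissues the nearest genes point to was put to gene lists. Of all 21627 protein-coding genes, 2392 (11.1%) were nearest to at least 1 distal region of control 1 alone. Of 20 genes listed for kidney epithelium, 9 were, a share of 45% (exact 95% interval 23.1 to 68.5), and of 20 adipocyte genes also 9. The third list by share among those with no gene nearest to a distal region of all 4 libraries was hepatocyte, with 5 of 19 genes (26.3%, 9.15 to 51.2). Podocyte and kidney stroma genes reached 6 of 20, macrophage, endothelium and glia or neural crest genes 5 of 20 each, and B cell genes 4 of 20. No gene of the fibroblast or the neuron list was reached (0 of 20, upper bound 16.8). These intervals cover counting error only.

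The other classes of distal region gave a different order. Distal regions of control 2 alone were nearest to 24.0% of all coding genes but to 2 of the 20 kidney epithelium genes and 2 of the 20 adipocyte genes, against 11 of 20 macrophage, 10 of 20 smooth muscle and 9 of 20 fibroblast genes. Regions of both controls only (10.6% of coding genes) reached 1 kidney epithelium, 2 adipocyte and 7 macrophage genes. Regions of esculetin 1 alone (2.47%) reached 0, 1 and 0 genes of these lists and those of esculetin 2 alone (6.82%) 1, 1 and 0. Regions of all 4 libraries (3.03%) reached 0, 0 and 1. No test was made of these differences between lists, and regions of 1 library are not replicates.

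**Figure D3:**
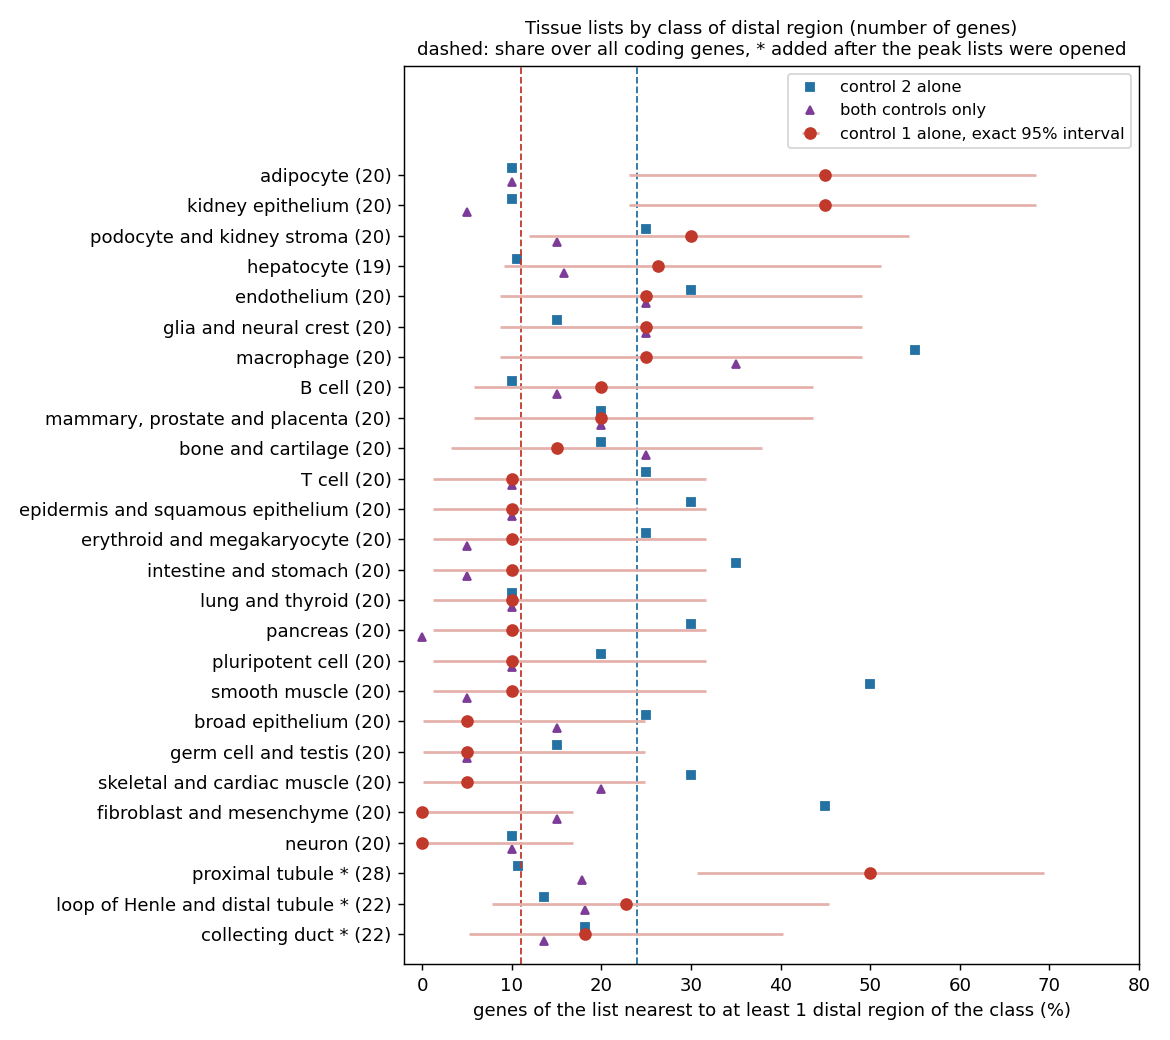
Share of each list's genes that were nearest to a distal region. The x axis is in percent, each row is a list with its number of genes, red points with exact 95% intervals are regions of control 1 alone, blue squares control 2 alone, and purple triangles both controls only. Dashed lines give the share over all coding genes, 11.1% for control 1 alone and 24.0% for control 2 alone. Kidney epithelium and adipocyte stand at 45% in red and 10.0% in blue, and macrophage at 25.0% in red and 55.0% in blue.

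A gene with few neighbours is the nearest gene over a longer stretch, so the counts were also set against the length of that stretch. The 20 kidney epithelium genes together were nearest over 5.89 Mb, with a median of 135 kb each against 48.2 kb over all coding genes. Their 10 regions came to 1.70 per Mb, 1.5 times the 1.13 per Mb over all coding genes. By the same measure the adipocyte genes had 5.37 regions per Mb (4.73 times), the macrophage genes 1.83 (1.61 times), and the hepatocyte genes 1.25 (1.10 times). Per length, the kidney epithelium genes were thus near the macrophage genes in control 1 alone, whereas in control 2 alone the kidney epithelium genes were at 0.107 times and the macrophage genes at 1.25 times the density over all coding genes.

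The kidney epithelium regions were of middling strength. Umod, which encodes uromodulin of the thick ascending limb, had a region at the 44.2 percentile 9.94 kb from the TSS (fold 4.03) and a nearer peak 2.21 kb from the TSS at the 73.7 percentile, both of control 1 alone. Cubn, the gene of the endocytic receptor cubilin, had a region at the 30.2 percentile 81.9 kb into the gene. Cubn also had distal regions in control 2 and esculetin 2, one of them at the 89.4, 80.1 and 74.7 percentile in control 1, control 2 and esculetin 2. Presence of a peak at this gene was therefore not limited to control 1.

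The factors that pattern the nephron had weaker regions. Pax2 had one at the 21.3 percentile 4.38 kb into the gene, Lhx1 at the 21.3 percentile 72.2 kb upstream, Irx3 at the 16.3 percentile 19.5 kb away, and Gata3 at the 8.28 percentile 737 kb away. The Pax2 and Lhx1 regions each had a summit coverage of 25 over the background of 6.51. Pax2 and Lhx1 had no peak in another library. None of these regions, nor any other near a gene of this list, was above the median of the control 1 list. When each library's list was cut to its 8559 strongest peaks, 0 of the 20 kidney epithelium genes and 0 of the 20 adipocyte genes were reached.

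To resolve the nephron further, 3 lists were added after the peak lists had been opened, and their counts are a description that cannot support the kidney list. Of 28 proximal tubule genes, 14 (50.0%, exact 95% interval 30.6 to 69.3) were nearest to a distal region of control 1 alone, with 20 regions over 1.94 Mb, or 10.3 per Mb (9.10 times all coding genes). Of 22 genes of the loop of Henle and distal tubule 5 were reached (1.15 times per Mb), and of 22 collecting duct genes 4 (0.959 times). The proximal tubule is the segment that reabsorbs most of the filtrate and makes glucose. Its list was the densest of the 3 per Mb. All 3 were chosen with the peaks in view, so this order does not compare the segments. With each list cut to its 8559 strongest peaks 5 of the 28 proximal tubule genes were still reached, against 4.67% of all coding genes. For proximal tubule genes the other classes gave 3 genes in control 2 alone (10.7% against 24.0% of coding genes, 0.651 times per Mb), 5 in both controls only (17.9% against 10.6%, 2.61 times), 2 in esculetin 2 alone (7.14% against 6.82%, 1.61 times), and 0 in esculetin 1 alone and in all 4 libraries. Both controls only was thus also above its own background at these genes.

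Promoter peaks at the proximal tubule genes differed in number between libraries. A promoter peak was present at 9 of the 28 genes in control 1, 2 in control 2, 0 in esculetin 1 and 1 in esculetin 2. These were shares of 32.1%, 7.14%, 0% and 3.57%, against 36.1%, 37.6%, 26.1% and 33.3% of all coding genes, so that control 1 was near its background and the other libraries were below theirs. At 6 of the 28 (21.4%) the promoter peak was in control 1 alone, against 340 of all coding genes (1.57%). Promoter peaks had no part in choosing the distal regions, but the 28 genes were listed with the peaks in view. Slc22a6, the organic anion transporter OAT1 (48.0 percentile), was one of the genes with a peak of control 1 alone by its TSS and no distal region. Fbp1, fructose-1,6-bisphosphatase of gluconeogenesis, had a peak of control 1 alone at the 90.8 percentile 265 bp from the TSS and a distal region at the 4.84, while esculetin 2 had a promoter peak of its own at the 6.28.

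The remaining proximal tubule genes with a distal region of control 1 alone held 1 each. Keg1, a kidney-expressed acyltransferase-family gene, had one at the 74.1 percentile, Slc13a3, a dicarboxylate transporter, at the 39.9, and Cyp4b1, a cytochrome P450, at the 36.7, with no other peak in any library for these 3. Hnf4a, a nuclear receptor of liver and proximal tubule, had one at the 9.8 percentile, G6pc, glucose-6-phosphatase, at the 6.95, and Slc3a1, a subunit of the cystine transporter, at the 2.32. Hnf4a and Slc3a1 also had stronger distal regions shared with control 2. No region of any library was nearest to Slc34a3, Slc5a2, Slc5a12, Lrp2 or Akr1c21. A region inside such a gene can still be nearest to another TSS. With regions given first to the gene around them, 16 of the 28 proximal tubule genes were reached.

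**Figure D4:**
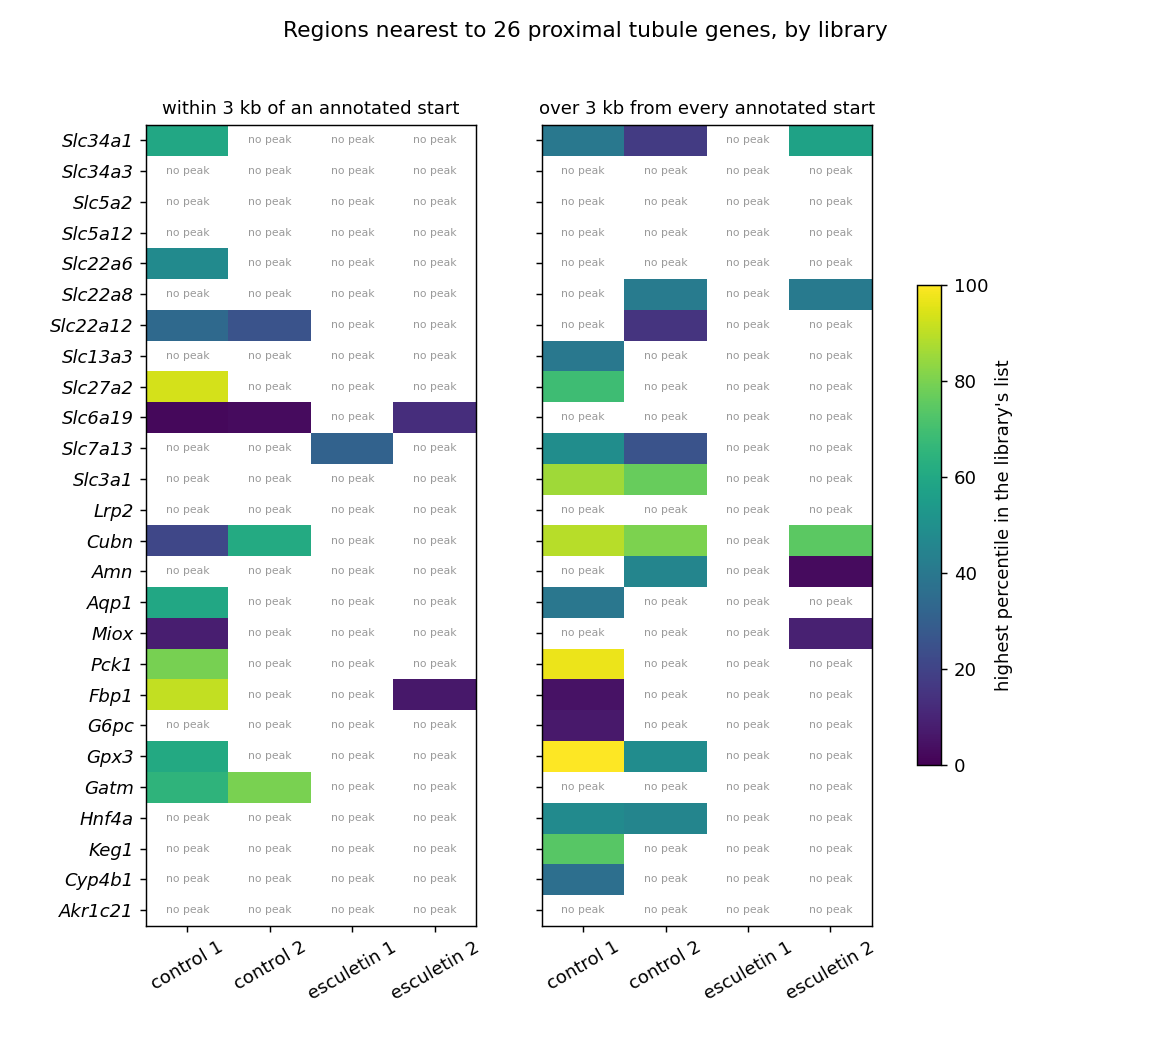
Regions nearest to 26 of the 28 proximal tubule genes. Rows are genes, columns the 4 libraries, the left panel holds regions within 3 kb of an annotated start and the right panel those beyond, and the colour gives the highest percentile in that library's list from 0 to 100. In the right panel Pck1 (97.0) and Keg1 (74.1) are filled in control 1 with no peak in the other columns, while Cubn (89.4, 80.1 and 74.7) is filled in 3 columns.

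Near the kidney epithelium list or any of the 3 nephron lists lay 34 of the 2985 regions (1.14%, exact 95% interval 0.790 to 1.59). The share was 12 of 8349 (0.144%) in control 2 alone, 13 of 3120 (0.417%) in both controls only, 4 of 1683 (0.238%) in esculetin 2 alone, 1 of 568 (0.176%, upper bound 0.977) in esculetin 1 alone, and 0 of 788 in all 4 libraries (upper bound 0.467). For macrophage genes the shares were 6 of 2985 (0.201%), 13 of 8349 (0.156%) and 7 of 3120 (0.224%) in control 1 alone, control 2 alone and both controls only. By strength, 11 of the 361 regions at or above the 50th percentile were near these kidney genes (3.05%), 10 of the next 920 (1.09%), 6 of the next 888 (0.676%) and 7 of the 816 weakest (0.858%). The kidney epithelium list alone had 0, 5, 4 and 1 regions in these bands, so all 11 of the strongest band came from the nephron lists added after the peak lists had been opened. Of these 11, 2 belonged to Pck1 and 2 to Slc27a2.

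Of the loop of Henle and distal tubule genes, the strongest after Umod was Egf, epidermal growth factor, with regions at the 36.7 and 21.3 percentile 66.1 and 81.6 kb away and a promoter open in all 4 libraries. Of the collecting duct genes, Atp6v0d2, a subunit of the vacuolar proton pump that is also known from osteoclasts and macrophages, was at the 52.8 percentile and Scnn1g, a subunit of the epithelial sodium channel, at the 46.5. In the podocyte and kidney stroma list, Ptpro, a receptor phosphatase of podocytes and also of leukocytes, had regions at the 76.4 and 23.6 percentile more than 134 kb into the gene. Lmx1b, a podocyte and limb factor, was at 51.8 with a distance of 115 kb, and Magi2, a junction scaffold, at 46.5. Several of these genes are thus known from more than 1 tissue.

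The adipocyte genes held 1 region each, none above the 42nd percentile. Lipe, hormone-sensitive lipase, stood at the 41.7 percentile 4.21 kb from the TSS, and its promoter was open in all 4 libraries. Cidea, a lipid droplet protein of brown fat, was at 38.1, and Ebf2, Adipoq and Ucp1, a brown fat factor, adiponectin and the uncoupling protein, were each at 26.6. Acvr1c, an activin-type receptor of fat cells, was at 21.3, Fabp4, a fatty acid-binding protein of fat cells and macrophages, at 16.3, Prdm16, a brown fat factor, at 15.3, and Pparg, the nuclear receptor of fat cell formation and of lipid-laden macrophages, at 12.1. The Ucp1 region lay in the body of Tbc1d9 and the Fabp4 region in that of Fabp12, so the nearest TSS and the gene around the region differed. Of the 9, Cidea, Ucp1, Acvr1c and Fabp4 had no peak in any other library, whereas Pparg had 3 distal regions of control 2 alone and 1 of both controls.

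The hepatocyte genes were reached mostly from far away. Apoa1, apolipoprotein A-I, was nearest to regions at the 61.0 and 9.6 percentile more than 50 kb away, both inside Sik3. Foxa2, a pioneer factor of endoderm, was at the 36.7 percentile at 232 kb, and Prox1, a factor of liver and lymphatics, at the 10.4 at 364 kb. Hnf4a and G6pc, given above, were also on this list, and no hepatocyte gene had a promoter peak in any library. Pck1, which liver also uses, was not on the hepatocyte list.

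Macrophage genes were present among the regions as well. Csf1r, the receptor for the growth factor that macrophages depend on, had regions at the 56.7 percentile 14.7 kb upstream and at the 30.1 percentile 26.6 kb downstream. Mrc1, the mannose receptor, was at 51.0, Irf8, a lineage factor, at 30.0, Cx3cr1, the fractalkine receptor, at 9.2, and Aif1, the allograft inflammatory factor, at 8.28. At Csf1r both controls shared a distal region at the 77.1 percentile in control 1 and the 52.5 in control 2, and control 2 alone had one at 89.7. The Csf1r regions of control 1 alone thus sat among regions that the second control library listed too.

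In the other lists the strongest region was that of Tyr, given above, on the list for glia and neural crest. It was followed by regions nearest to Prdm14 (62.4), a germ cell and pluripotency factor, Scgb1a1 (58.9), a club cell secretoglobin reached inside Ahnak, Blnk (55.1), a B cell linker, Spp1 (52.0 and 46.5), osteopontin, Nkx2-2 (43.8), a pancreas and neural factor, Vil1 (43.1), villin of the brush border, reached inside Usp37, and Mitf (41.7), a factor of melanocytes and osteoclasts. For endothelium the genes of endothelial nitric oxide synthase, Nos3 (39.3), of a secreted vessel factor, Egfl7 (31.6), and of a VEGF receptor, Flt1 (28.9 and 15), led. Lists with 1 or 2 genes reached had shares of 5.00% or 10.0%, at or below the 11.1% of all coding genes.

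Among gene families defined by symbol, solute carriers, the membrane transporters in which kidney tubules are rich, were nearest to a region in 60 of 375 genes (16%, 12.4 to 20.1), 1.69 times the density per Mb of all coding genes. The same family was at 1.14 times in control 2 alone and 1.60 times in both controls only. KLF factors were reached in 7 of 17 (41.2%, 2.15 times), and also in 7 of 17 in control 2 alone (0.592 times) and in both controls only (1.11 times). AP-1 factors were reached in 3 of 11 (27.3%, 3.56 times) and were at 2.86 times in control 2 alone. They were higher in esculetin 2 alone (4.73 times) and in all 4 libraries (16.8 times). In both controls only they were at 0.85 times and in esculetin 1 alone at 0. Hox genes were reached in 0 of 39 and laminins in 0 of 11, and olfactory receptors in 7 of 1110 (0.631%). The 39 Hox genes together were nearest over 0.859 Mb. Other families of developmental genes were reached, with 4 of 22 Fgf ligands (18.2%, 0.669 times), 7 of 44 Fox factors (15.9%, 0.766 times) and 1 of 19 Wnt ligands (5.26%, 1.10 times).

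Most genes held few regions, with 1942 of the 2392 nearest to 1 and 359 to 2. The gene with the most, Zfp386 with 12, was nearest only because its stretch covers the immunoglobulin heavy-chain V segments, from 221 to 877 kb away. Of these 12 regions, 8 had a V segment or V pseudogene as the closest annotated gene of any type. Their percentiles ran from 0.916 to 61.6, and the stretch held 27 distal regions in control 1, 14 in control 2, 9 in esculetin 1 and 6 in esculetin 2. It was therefore rich in peaks in every library. Gm15319 (8 regions) and Gm21119 (5 regions), both within a stretch of chromosome 8 with many pseudogene copies, also had distal regions in every library. The authors removed reads that mapped to several places, and how this acted on such repeated stretches was not tested.

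Of the single-copy genes, Prkch, a protein kinase C of epithelia and lymphocytes, held 6 regions, all inside the gene, from 8.81 to 87.0 kb from the TSS at the 10.7 to 49.1 percentile. Its stretch held 9 distal regions in control 1, 5 in control 2, 2 in esculetin 1 and 1 in esculetin 2. Ubash3b held 5 regions at the 34.7 to 84.5 percentile, with 12 distal regions in control 1, 10 in control 2, 0 in esculetin 1 and 1 in esculetin 2. Slc24a3, Klf6, Tle3, Cntn5 and Jmjd1c held 5 each. Apart from Cntn5, where control 2 had no distal region, both controls had distal regions near all of these genes.

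The share of regions inside genes was nearer to that of both controls only than to that of control 2 alone. Inside a protein-coding gene lay 1597 of the 2985 (53.5%, 51.7 to 55.3), against 79.6% in control 2 alone, 57.4% in both controls only, 46.5% in esculetin 2 alone, 42.1% in esculetin 1 alone and 41.2% in all 4 libraries. The share inside genes was 57.9% (52.6 to 63.0) in the strongest band and 51.0% (47.5 to 54.5) in the weakest. The median distance to the nearest coding TSS was 26.9 kb, against 22.2 kb in control 2 alone, 27.5 kb in both controls only, 30.3 kb in all 4 libraries, 31.6 kb in esculetin 1 alone and 32.1 kb in esculetin 2 alone. Another region of control 1 alone lay within 10 kb for 277 (9.28%), against 36.5% in control 2 alone and 15.1% in both controls only. These shares were not adjusted for class size, which was 8349 regions in control 2 alone and 3120 in both controls only. Chromosome X held 32 of the regions (1.07%, 0.734 to 1.51), against 3.44% in control 2 alone and 0.513% in both controls only.

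Promoters of the 2392 nearest genes were mixed. All 4 libraries had a promoter peak at 704 of them (29.4%), against 23.2% of all coding genes, and none of the libraries at 1077 (45%), against 57.5%. At 48 genes (2.01%, 1.48 to 2.65) the promoter peak too was in control 1 alone, against 1.57% of all coding genes, so the 2 sets of genes overlapped little more than the background. Besides Slc27a2, Pck1, Gpx3 and Aqp1 these 48 included Igfbp7 (promoter at the 85.9 percentile) and Igfbp4 (75.1), both for proteins that bind insulin-like growth factors, Ccnb2 (84.2), a mitotic cyclin, Ephx1 (60.8), an epoxide hydrolase, and Myc (25.6). Of the 10 strongest promoters among the 48, 3 belonged to proximal tubule genes. The genes with both kinds of peak were therefore not of 1 tissue.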

How the data were processed

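ATAC-seq was carried out by the authors on 4 libraries of RAW264.7 cells. Per the labels and the study's methods, Trim Galore cut the adapters, Bowtie2 placed the reads on mm10, Sambamba took out PCR duplicates and multiply mapped reads, and MACS2 called peaks per library (settings not given in the sources used here). The deposited narrowPeak lists give each peak's position, a display score, the fold enrichment at the summit, and −log10 of the p-value and q-value. They hold no counts, so depth is known only through the background coverage solved from fold and p. Peak names inside the 2 esculetin lists carry another replicate number than the labels, and the labels were followed.

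Peaks on chromosomes 1-19 and X were merged at 1 bp overlap with Python 3.11.15, pandas 2.3.3, NumPy 2.4.6 and SciPy 1.17.1. Start sites came from RefSeq (GRCm38.p6, 49550 genes, 67245 starts). Strand was known for 97.9% of coding genes, from the RefSeq promoter windows or, where these gave none, from GENCODE by symbol. A gene without strand counted at both ends. The starts include further promoters of a gene. Each region was assigned to the nearest coding TSS. A gene's stretch runs halfway to the neighbouring coding TSS. Lists of 20 genes for 23 tissues and 24 symbol families were used, and 3 nephron lists and 1 alternative start set were added after the peak lists were opened. The regions and lists were chosen with earlier results of these data known. Named genes were the 15 strongest regions, the 10 genes with most regions, all reached genes of the 3 lists with the highest shares relative to the class of all 4 libraries (kidney epithelium, adipocyte and hepatocyte), up to 4 of other lists, and 3 regions on either side of the 3 kb limit; others were named after their values were seen. Some genes that this rule names are not reported here. No test was made across regions. Shares carry 95% intervals by the Clopper-Pearson method, for the error of counting alone. Scripts were tested on simulated peaks.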

Additional observations from a re-analysis of the deposited data

How the results depend on the processing

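Of 17 alternatives, 2 changed only the gene assigned to a region. Under the others the number of distal regions in control 1 alone stayed within 1.5 times of 2985 except at 6140 without control 2, 1956 with a limit of 10 kb, 1924 with −log10 q of at least 5 in every list, 1604 with it in control 1 only, and 1151 when each list was cut to its 8559 strongest peaks. Leaving out 1 of the other libraries gave 3059 to 6140 regions and a gene-body share of 53.3% to 55.6%. That share was 49.97% with coding starts only and 55.95% with equal lists. With equal lists, which hold no region under about the middle of the control 1 list, the adipocyte and kidney epithelium shares were 0% and the hepatocyte share 5.26%, against 4.67% of all coding genes, and 5 of 28 proximal tubule genes (17.9%) were still reached. In the other 16 alternatives kidney epithelium ranged from 30.0% to 55.0% and was first or second of 23 lists. Without control 2 the macrophage list led at 55.0%, above kidney epithelium and adipocyte at 45% each, and the share over all coding genes was 18.2% against 11.1%. Adipocyte ranged from 25.0% to 50.0% and proximal tubule from 25.0% to 57.1%. Of the values for the number of regions, the gene-body share and the kidney epithelium, adipocyte and hepatocyte lists, 11 moved and 70 did not; of the values for the other lists, 23 of 340 moved beyond the interval of the main value. No paired analysis was possible because no test was run and presence of a peak in 1 library defined the regions.

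Each group held 2 libraries and 1 of them chose the regions, so no replicate speaks to them. The lists hold called peaks only, and signal below the caller's threshold is not listed. Lists of about 20 genes give wide intervals, and genes share neighbours, so the genes of a list are not independent. The nearest gene need not be the one a region acts on.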
